A study of Mus musculus with 12 samples.

Results

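The MCM helicase and replication licensing genes are 10 genes, Mcm2, Mcm3, Mcm4, Mcm5, Mcm6, Mcm7, Mcm10, Cdc45, Cdc6 and Cdt1, taken by gene name and gene ID out of 53801 genes counted in cells sorted from mouse skin tumors. Licensing loads the helicase onto DNA. The origin recognition complex marks a replication origin, and Cdc6 and Cdt1 then place a double ring of the proteins Mcm2 to Mcm7 around the DNA. In S phase Cdc45 and the GINS complex join this ring to form the active helicase, and Mcm10 takes part in that activation. Geminin blocks Cdt1 after licensing, so that an origin fires once in a cycle. Many of these genes are transcribed at the entry into S phase under E2F transcription factors, and their mRNAs are widely used as signs of proliferation, in epidermis as elsewhere.

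RNA-seq libraries came from cutaneous squamous cell carcinoma in mice of the FVB strain. TGF-beta reporter-positive and reporter-negative carcinoma cells (3 libraries each) were basal tumor cells sorted for Rosa-YFP, CD49f and CD29 and then for the mScarlet reporter of TGF-beta signalling. FceRIa-positive and FceRIa-negative macrophages (3 libraries each) were sorted from such tumors as CD45-positive F4/80-positive cells with or without the alpha chain of the high-affinity IgE receptor. The age of the mice, the promoters of the reporter and of the label, the way the tumors arose, and whether animals were pooled were not given in the sources used here. Nothing there says that replicates came from separate animals, so p-values measure the spread between these libraries, which may be technical. In such bulk samples, fewer cells of a type and less RNA per cell cannot be told apart.

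Libraries held 27951632 to 35088897 counts in the carcinoma cells and 33704786 to 40041144 in the macrophages. The smallest count of a licensing gene was 302 in a carcinoma library (Cdc6) and 197 in a macrophage library (Mcm10). The 12 keratinocyte markers summed to 79470 to 98390 CPM (counts scaled to library size) in reporter-positive and 80660 to 90180 CPM in reporter-negative carcinoma libraries. The 10 macrophage markers summed to 27240 to 30150 CPM in FceRIa-positive and 15920 to 19690 CPM in FceRIa-negative macrophages. Fcer1a, the gene behind the macrophage sort, was at 0.0919 ± 0.0868 CPM in FceRIa-positive and 0.0606 ± 0.0525 CPM in FceRIa-negative macrophages (SD, n = 3 each), at or near the 0.0749 to 0.089 CPM that 3 counts in a library amount to. The mRNA therefore does not check that sort. Carcinoma replicate 2 stood apart in both groups. Replicates 1 and 3 differed with a chi-square over its degrees of freedom that came to 1.62 in reporter-positive and 2.97 in reporter-negative cells, against 43.1 to 90.6 for the pairs with replicate 2.

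Promoter windows of RefSeq (GRCm38.p6, 250 bases before to 50 after a gene's start) were found for 9 of the 10 genes. No window of Mcm4 was used. E2F-type sequences were searched on both strands as TTTCCCGC, TTTCGCGC, TTTGCCGC or TTTGGCGC, and 6 of the 9 genes held at least 1 of them (Mcm3, Mcm5, Mcm6, Mcm7, Cdc6 and Cdt1). Among all 27025 genes with a window, 2.6% did. The letters CCAAT, the core of the sites bound by NF-Y, were in 7 of the 9 on either strand, against 41.1% of all genes. A match describes the letters and does not show a bound site, and these genes were chosen as a known group, so neither share was tested. The stretches below show where the matches lie. Capitals mark the E2F-type letters in all but Mcm10, where they mark CCAAT, and distances are from the start site (base 0). In Mcm5 and Mcm6 a form on each strand overlap and give 1 run of 12 capitals.
Mcm5, chr8:75109319-75109418, plus strand: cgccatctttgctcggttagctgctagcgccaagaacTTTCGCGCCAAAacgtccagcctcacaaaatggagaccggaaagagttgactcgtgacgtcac
Mcm6, chr1:128359731-128359830, minus strand: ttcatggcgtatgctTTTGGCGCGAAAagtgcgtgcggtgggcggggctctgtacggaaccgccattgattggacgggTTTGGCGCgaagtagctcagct
Mcm7, chr5:138172032-138172057, minus strand: tttcgaaccGCGGGAAAcagggtgtc
Cdc6, chr11:98908004-98908029, plus strand: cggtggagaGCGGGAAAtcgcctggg
Mcm3, chr1:20820277-20820302, minus strand: acttccgtgGCGGGAAAacttgggaa
Cdt1, chr8:122568038-122568063, plus strand: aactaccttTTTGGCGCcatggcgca
Mcm10, chr2:5012792-5012911, minus strand: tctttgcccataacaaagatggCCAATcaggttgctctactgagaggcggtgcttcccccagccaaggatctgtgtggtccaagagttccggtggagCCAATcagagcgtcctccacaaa
The Mcm5 run begins at base -153, and the runs of Mcm6 begin at -110 and -47. The matches shown for Cdc6 and Mcm7 begin at -138 and -165, upstream of the start, and those shown for Mcm3 and Cdt1 at 19 and 32, downstream of it. Mcm7 and Mcm3 each held a further match downstream, at 16 and 38, that is not printed. Mcm2, Mcm10 and Cdc45 each held 0 of the searched E2F-type forms. The CCAAT letters shown for Mcm10 begin at -98 and -23, and a further CCAAT match at 31 is not printed.

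The carcinoma comparison asks how cells that respond to TGF-beta differ from those that do not. All 10 genes were lower in every reporter-positive library than in every reporter-negative library, an order that 13.6% of the 13604 genes tested showed. The log2 differences ran from -0.41 for Mcm4 to -0.79 for Mcm10, with a median of -0.56, against 0.003 over all genes (differences are those of the unpaired fit unless called paired). In the unpaired fit 1 of the 10, Mcm10, passed an adjusted p of 0.05, where 0.235% of all genes were called lower and 0.573% higher. At an unadjusted p under 0.05 it gave 10 of them lower, as it did 8.34% of all genes, and unpaired DESeq2 called 8 of them and 3.52% of all genes lower. Once libraries of equal number were paired by a block (the paired fit), 10 of 10 were called lower, where 7.34% of all genes were called lower and 10.7% higher.

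**Figure D1:**
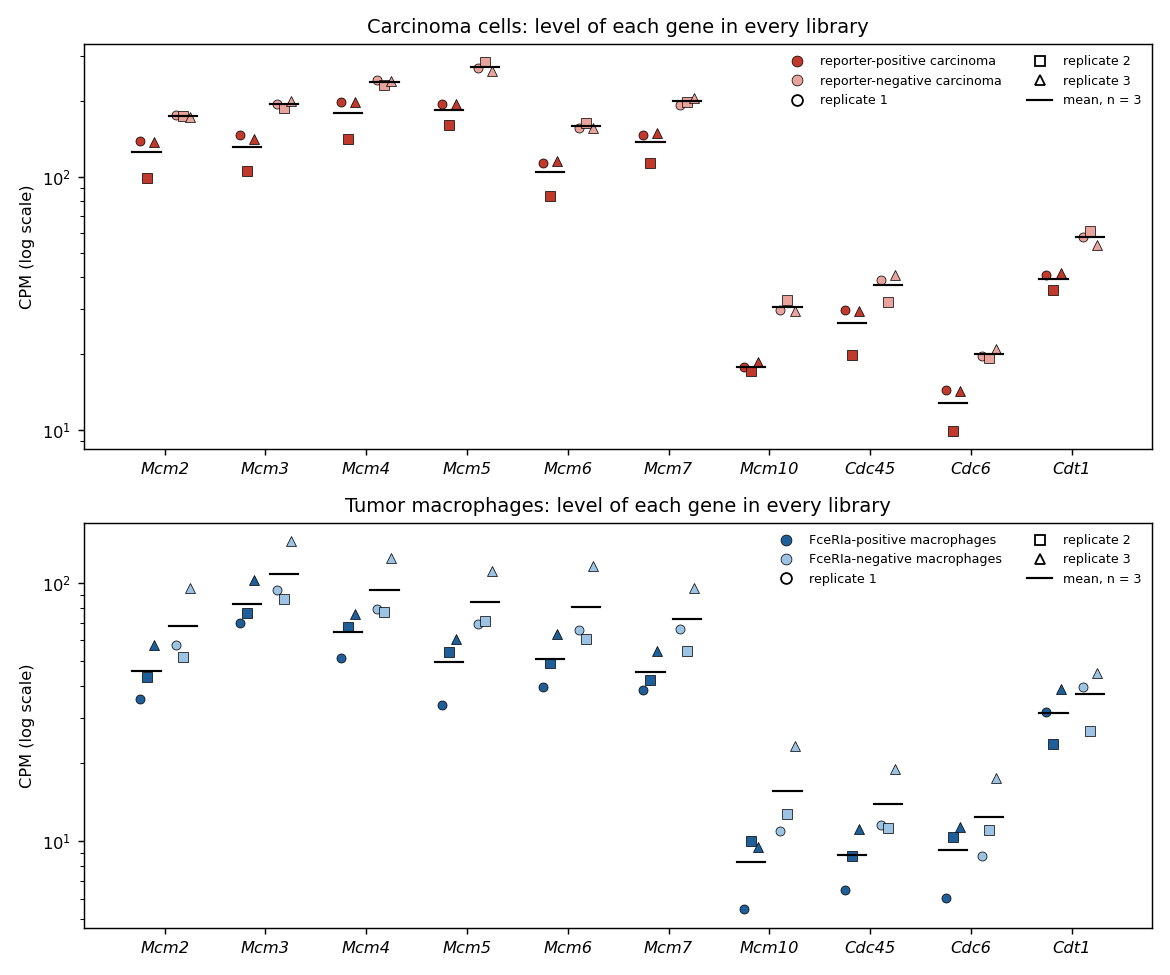
Level of each gene in every library, in CPM on a log axis. Points are libraries, with the shape giving the replicate number, and bars are means of 3 libraries. All reporter-positive carcinoma libraries lie below all reporter-negative ones for each gene, with positive replicate 2 lowest, whereas the macrophage groups overlap for 5 of the 10 genes.

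Among the 6 subunits of the ring, Mcm5 stood at 194.1, 160.0 and 193.9 CPM in reporter-positive replicates 1 to 3 and at 267.9, 283.0 and 262.4 CPM in reporter-negative ones. Its log2 difference was -0.57 (SE 0.0921, unpaired adjusted p = 0.0579, paired 0.0106). Mcm6 stood at 113.6, 83.9 and 115.6 CPM in reporter-positive and 155.2, 163.3 and 155.8 CPM in reporter-negative libraries, a log2 difference of -0.60 (SE 0.127, unpaired adjusted p = 0.0848, paired 0.0169). In both genes the reporter-negative libraries lay close together and reporter-positive replicate 2 lay below its 2 companions. Mcm3 had 146.1, 104.9 and 140.4 CPM in reporter-positive and 194.2, 186.8 and 199.2 CPM in reporter-negative libraries. Mcm7 had 146.7, 113.7 and 149.3 CPM in reporter-positive and 191.9, 198.2 and 205.5 CPM in reporter-negative libraries. These 2 subunits differed by -0.57 and -0.54 on the log2 scale, with paired adjusted p-values of 0.0106 and 0.012 and unpaired ones of 0.0922 and 0.0834. Mcm2 had 138.1, 98.59 and 137.6 CPM in reporter-positive and 175.3, 174.1 and 171.7 CPM in reporter-negative libraries. Mcm4 had 197.5, 140.4 and 197.7 CPM in reporter-positive and 241.4, 230.1 and 239.9 CPM in reporter-negative libraries. Their log2 differences, -0.48 and -0.41, were the smallest of the 10, with paired adjusted p-values of 0.0253 and 0.0281 and unpaired ones of 0.129 and 0.179.

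The loaders were lower by like amounts. Cdc6, the ATPase that brings the ring to the origin, had 14.32, 9.905 and 14.18 CPM in reporter-positive and 19.55, 19.21 and 20.87 CPM in reporter-negative cells. Cdt1, its partner and the target of geminin, had 41.04, 35.75 and 41.75 CPM in reporter-positive and 57.79, 61.1 and 53.72 CPM in reporter-negative cells. The log2 difference was -0.63 ± 0.154 for Cdc6 and -0.54 ± 0.0846 for Cdt1 (SE), with unpaired adjusted p-values of 0.105 and 0.0539 and paired ones of 0.0156 and 0.0119. Again the groups did not overlap and reporter-positive replicate 2 was lowest.

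Mcm10 and Cdc45 act after loading. Mcm10 had 17.71, 17.02 and 18.47 CPM in reporter-positive and 29.82, 32.5 and 29.41 CPM in reporter-negative cells, so here replicate 2 was close to the other reporter-positive libraries. Its log2 difference was -0.79 ± 0.0741 (SE), called in both fits (edgeR adjusted p = 0.0341 unpaired and 0.00492 paired). Cdc45 had 29.82, 19.78 and 29.35 CPM in reporter-positive and 39.18, 31.94 and 40.78 CPM in reporter-negative cells. In Cdc45 both replicate 2 libraries were the lowest of their group, and its log2 difference of -0.50 had an SE of 0.179 without the block and of 0.0737 with it (adjusted p = 0.196 and 0.0103). Relative to Mcm2 on a per-length scale, the Mcm10 level was 0.116, 0.156 and 0.121 in reporter-positive and 0.154, 0.169 and 0.155 in reporter-negative libraries, and the groups overlapped in that ratio.

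**Figure D2:**
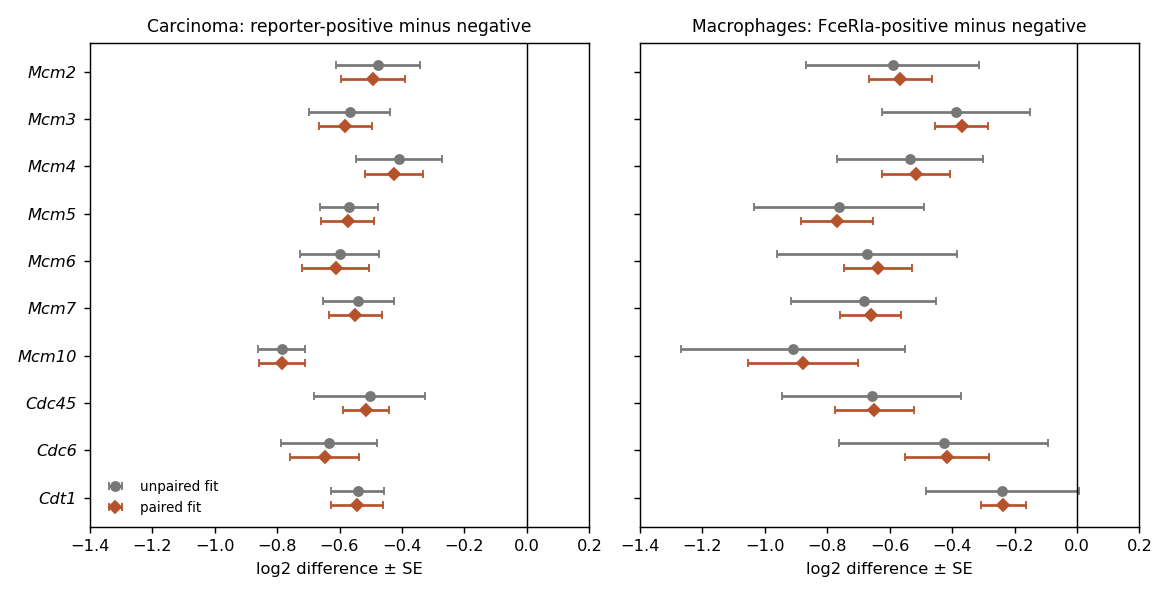
Log2 difference of each gene with its standard error, for reporter-positive minus reporter-negative carcinoma cells (left) and FceRIa-positive minus FceRIa-negative macrophages (right), without the block (grey circles) and with it (brown diamonds). All 40 estimates lie below 0, and the block narrows the errors most in the macrophages.

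The size of the carcinoma differences depended on replicate 2. Its log2 differences were -0.69 (Cdc45) to -0.96 (Mcm6 and Cdc6), against -0.29 to -0.75 in replicate 1 and -0.28 to -0.67 in replicate 3, with Mcm4 and Mcm10 at the ends of both. The unpaired count of called genes was 9 without reporter-positive replicate 2 and 0 without any 1 of the other 5 libraries. It was also 0 with replicates 1 and 3 of each group summed to 1 library, while the paired fit then called 9. Over 20 alternatives the log2 differences of the 10 genes lay between -0.84 and -0.27, and the largest adjusted p of a gene was 0.681 to 0.756. Other cells' markers moved with replicate 2. The leukocyte list (10 genes) summed to 25.87, 81.34 and 25.83 CPM in reporter-positive and 36.88, 67.35 and 34.09 CPM in reporter-negative libraries, and the macrophage list to 37.38, 116.8 and 34.07 CPM in reporter-positive and 30.25, 84.27 and 28.84 CPM in reporter-negative libraries. Of their genes 0 passed in the unpaired fit, and the paired fit called 2 macrophage markers higher and 0 leukocyte markers. Over all genes the paired fit called 7.34% lower and 10.7% higher. The neutrophil list (6 genes) summed to 96.16, 378.4 and 95.61 CPM in reporter-positive and 53.04, 82.79 and 61.2 CPM in reporter-negative libraries. Of its 5 tested genes the paired fit called S100a8 and S100a9 higher (paired log2 differences 1.38 and 1.45, adjusted p = 0.0164 and 0.0243), which keratinocytes can express too. The receptors Csf3r and Cxcr2, and Retnlg, had paired log2 differences of -0.11, 0.01 and -0.33 and did not pass in either fit. The part of these cells in the result was not tested.

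The other genes of origin use were read from lists chosen with earlier results of these data known. Over all genes, 13.6% were below in every reporter-positive library, and the paired fit called 7.34% lower and 10.7% higher. Of 19 origin firing genes, 16 were below in every reporter-positive library, 0 passed unpaired and 13 were called lower paired, with a median log2 difference of -0.43. Ccne2, a cyclin E that drives Cdk2 at S phase entry, was at 10.43 ± 1.43 CPM in reporter-positive and 15.73 ± 0.557 CPM in reporter-negative cells (log2 difference -0.59, adjusted p = 0.0828 unpaired, 0.0169 paired). Cdc7, the kinase that phosphorylates the loaded ring, was at 7.572 ± 1.30 CPM in reporter-positive and 12.32 ± 1.21 CPM in reporter-negative cells (log2 difference -0.70, adjusted p = 0.0906 unpaired, 0.00977 paired). Ccna2, the S phase cyclin A, and Recql4, a helicase-family initiation factor, had log2 differences of -0.49 and -0.54 and paired adjusted p-values of 0.0106 and 0.0143. Errors of these means are SD of 3 libraries.

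Of 6 origin recognition genes, 5 (all but Orc5) were below in every reporter-positive library, as were 13.6% of all genes. The list median was -0.16 and 0 passed unpaired. The paired fit called Orc1 and Orc6 lower, as it did 7.34% of all genes. Orc1, the subunit whose protein level is known from human cells to vary through the cycle, was at 11.67 ± 1.73 CPM in reporter-positive and 16.9 ± 0.52 CPM in reporter-negative cells. Orc6 was at 39.36 ± 3.86 CPM in reporter-positive and 51.06 ± 1.38 CPM in reporter-negative cells. The log2 differences of these 2 were -0.53 and -0.38 (adjusted p = 0.0976 and 0.0896 unpaired, 0.0175 and 0.0133 paired), whereas Orc2, Orc3, Orc4 and Orc5 lay between -0.16 and -0.01 and did not pass in either fit.

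Of 12 licensing regulators, 0 passed unpaired and 2 were called lower paired, with a median of -0.13. The paired fit called 7.34% of all genes lower. Gmnn, which encodes geminin, was at 47.07 ± 4.28 CPM in reporter-positive and 63.73 ± 4.45 CPM in reporter-negative cells (log2 difference -0.44, adjusted p = 0.0824 unpaired, 0.008 paired). The other was Mcm8, an MCM-family helicase of recombination (log2 difference -0.33, paired adjusted p = 0.0365). On the per-length scale Cdt1 stood at 0.379, 0.395 and 0.403 of Gmnn in reporter-positive and at 0.421, 0.482 and 0.369 of it in reporter-negative libraries, with overlapping groups. Of 13 E2F and RB family genes, 0 passed unpaired and 5 were called lower paired, with a median of -0.18. E2f1, an activator of S phase genes, was at 17.12 ± 1.86 CPM in reporter-positive and 23.56 ± 1.42 CPM in reporter-negative cells (log2 difference -0.46, adjusted p = 0.0917 unpaired, 0.028 paired). E2f4 and E2f6, which are known mainly as repressors, had log2 differences of -0.21 and -0.29 (paired adjusted p = 0.0292 and 0.0402).

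Mitosis genes had a smaller median difference than the licensing genes. Of 20, 5 were below in every reporter-positive library, as were 13.6% of all genes. Unpaired 0 passed, and 18 were called lower paired, as were 7.34% of all genes, with a list median of -0.36. Cenpa, the histone of centromeres, was at 89.28 ± 6.68 CPM in reporter-positive and 120.6 ± 2.36 CPM in reporter-negative cells (log2 difference -0.43, adjusted p = 0.059 unpaired, 0.00748 paired). Ccnb2, a mitotic cyclin B, and Cdc20, an activator of the anaphase-promoting complex, had log2 differences of -0.56 and -0.41 (paired adjusted p = 0.00624 and 0.0073). The mean log2 CPM of the 10 licensing genes minus that of the 20 mitosis genes was -0.479, -0.329 and -0.507 in reporter-positive and -0.329, -0.0397 and -0.339 in reporter-negative libraries. It was lower in the reporter-positive library of each replicate number, and the groups overlapped, since reporter-positive replicate 2 lay above reporter-negative replicate 3. Over the alternatives, the largest adjusted p of the 14 genes named from these lists was 0.681 to 0.855, reached with replicates 1 and 3 summed and no block.

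**Figure D3:**
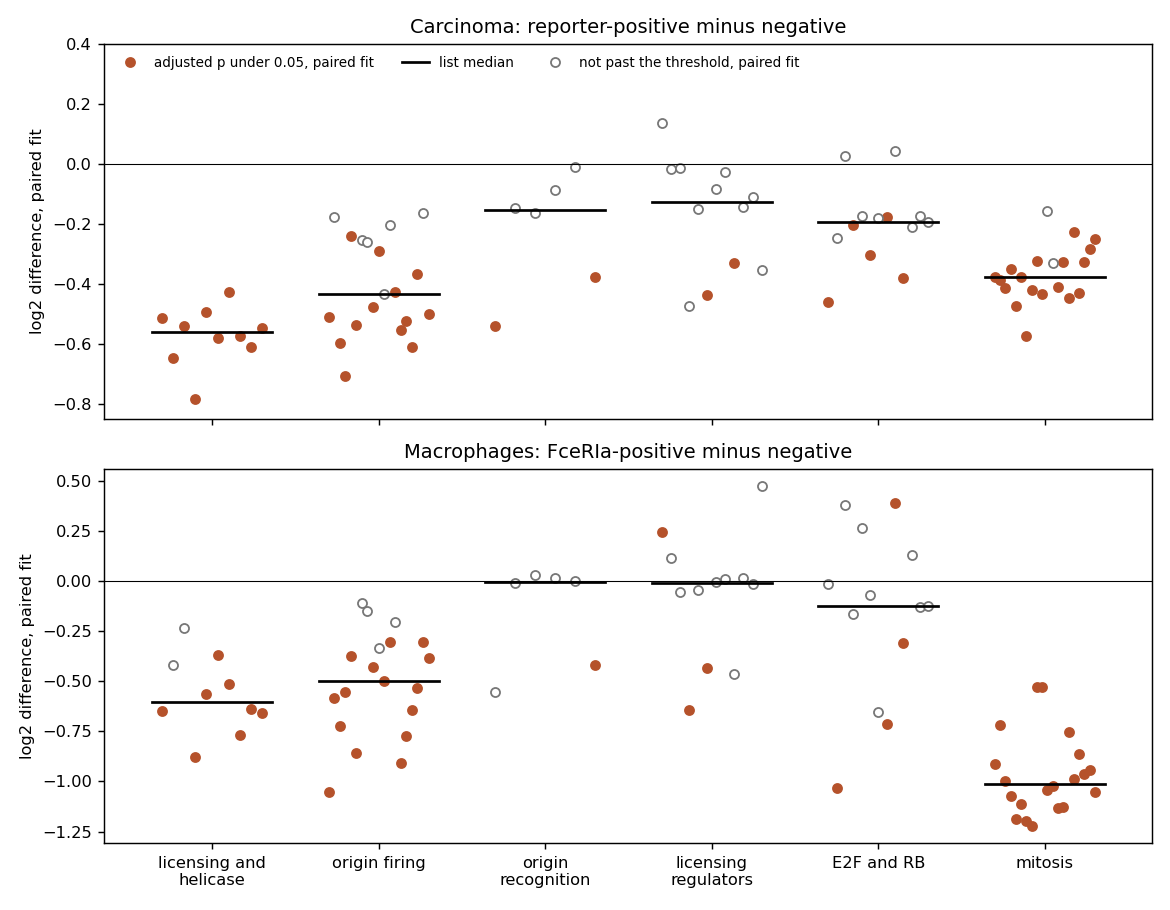
Log2 difference of every tested gene of the licensing and helicase group and of 5 related lists in the paired fit, for reporter-positive minus reporter-negative carcinoma cells (top) and FceRIa-positive minus FceRIa-negative macrophages (bottom), with the list medians as bars. Filled points passed an adjusted p of 0.05. The medians of the origin recognition genes and licensing regulators lie nearest 0 in the macrophages, at -0.005 and -0.01, with single genes down to -0.55 and -0.64, and that of the mitosis genes lies furthest below 0 there, at -1.01.

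Outside the 10 genes, the 5 whose pattern over the 6 carcinoma libraries was most like the mean of Mcm2 to Mcm7 were Orc1, Lig1, Usp1, Pclaf and Pold1. Likeness was the root mean square distance of centred log2 CPM, which was 0.0263 for Orc1 and 0.0368 for Pold1 among 8531 genes with a mean CPM of at least 10. Lig1 encodes DNA ligase I and Pold1 the catalytic subunit of polymerase delta. Lig1 was at 97.66 CPM in reporter-positive and 144 CPM in reporter-negative cells, and Pold1 at 35.24 CPM in reporter-positive and 52 CPM in reporter-negative cells. Within the group, the ring subunits, each a part of that mean, lay at 0.0301 (Mcm7) to 0.0659 (Mcm4) from it. Cdc6 lay at 0.0751, Cdt1 at 0.0894, Cdc45 at 0.123 and Mcm10 at 0.172.

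The macrophage comparison asks how FceRIa-positive tumor macrophages differ from FceRIa-negative ones. Every one of the 10 genes had a lower mean in the FceRIa-positive cells, with log2 differences from -0.24 for Cdt1 to -0.91 for Mcm10 and a median of -0.62, against -0.004 over all 14988 genes tested. In 5 of them (Mcm4, Mcm5, Mcm7, Mcm10 and Cdc45) every FceRIa-positive library lay below every FceRIa-negative one, as in 9.78% of all genes. The unpaired fit called 0 of the 10, as it called 0% of all genes lower and 0% higher. At an unadjusted p under 0.05 it gave 3 of them lower, as it did 7.35% of all genes, and unpaired DESeq2 called 0 of them and 4.3% of all genes lower. The paired fit called 8 lower, where 10.2% of all genes were called lower and 10.8% higher. Without pair 1, 2 or 3 it called 2, 9 and 8.

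The ring subunits varied widely between the replicates of each sort. Mcm3 had 70.03, 76.45 and 102.9 CPM in FceRIa-positive replicates 1 to 3 and 94.24, 86.81 and 145.2 CPM in FceRIa-negative ones. Mcm2 had 35.64, 43.09 and 57.57 CPM in FceRIa-positive and 57.68, 51.9 and 95.54 CPM in FceRIa-negative libraries. Mcm6 had 39.56, 49.15 and 63.5 CPM in FceRIa-positive and 65.54, 60.9 and 116.1 CPM in FceRIa-negative libraries. Replicate 3 was highest in both groups in these 3 genes and the groups overlapped, yet the FceRIa-positive library was the lower of each number. Their paired log2 differences were -0.37, -0.57 and -0.64, with adjusted p-values of 0.017, 0.006 and 0.00498, against 0.533, 0.383 and 0.333 unpaired. Mcm4 had 51.08, 67.58 and 75.72 CPM in FceRIa-positive and 79.16, 77 and 125.3 CPM in FceRIa-negative libraries. Mcm5 had 33.84, 54.01 and 60.93 CPM in FceRIa-positive and 69.26, 71.55 and 111.4 CPM in FceRIa-negative libraries. Mcm7 had 38.65, 42.19 and 54.45 CPM in FceRIa-positive and 66.62, 54.74 and 95.92 CPM in FceRIa-negative libraries. These 3 did not overlap, and their paired log2 differences were -0.52, -0.77 and -0.66 (adjusted p = 0.0121, 0.00302 and 0.00274, against 0.345, 0.235 and 0.214 unpaired).

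After loading, Mcm10 had 5.442, 10.02 and 9.517 CPM in FceRIa-positive and 10.93, 12.7 and 23.32 CPM in FceRIa-negative libraries. Cdc45 had 6.492, 8.788 and 11.2 CPM in FceRIa-positive and 11.59, 11.21 and 19 CPM in FceRIa-negative libraries. FceRIa-negative replicate 3 was the highest library of both genes, and the closest libraries of the 2 groups were nearly level in Cdc45. Paired log2 differences were -0.88 ± 0.176 for Mcm10 and -0.65 ± 0.127 for Cdc45 (SE), with adjusted p-values of 0.0102 and 0.00921, against 0.287 and 0.342 unpaired.

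The loaders did not pass in either fit. Cdc6 had 6.022, 10.4 and 11.31 CPM in FceRIa-positive and 8.746, 11.02 and 17.55 CPM in FceRIa-negative libraries. Cdt1 had 31.6, 23.72 and 38.72 CPM in FceRIa-positive and 39.38, 26.72 and 44.93 CPM in FceRIa-negative libraries. Both groups overlapped in both genes. Cdc6 had a paired log2 difference of -0.42 ± 0.135 (adjusted p = 0.0642) and Cdt1 one of -0.24 ± 0.073 (adjusted p = 0.0558), against 0.661 and 0.767 unpaired. The FceRIa-positive library was the lower of every number in both, by -0.54, -0.08 and -0.63 in Cdc6 and by -0.32, -0.17 and -0.22 in Cdt1. Replicate 2 had the smallest difference in all 10 genes, between -0.08 (Cdc6) and -0.41 (Mcm5). Over 18 alternatives the log2 differences of the 10 genes lay between -1.16 and -0.07, and the largest adjusted p of a gene was 0.542 to 0.98.

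Markers of other cells moved with this comparison. The Langerhans and dendritic cell list (9 genes, 0 at 0 in any macrophage library) summed to 50.22, 76.91 and 77.11 CPM in FceRIa-positive and 305, 409.7 and 796.6 CPM in FceRIa-negative libraries. Its Cd207, the langerin of Langerhans cells, was at 18.92 ± 16.7 CPM in FceRIa-positive and 147.2 ± 89.8 CPM in FceRIa-negative macrophages, and Flt3, a receptor of dendritic cells, at 1.357 ± 0.514 CPM in FceRIa-positive and 10.05 ± 5.06 CPM in FceRIa-negative ones (SD, n = 3 each). Keratinocyte markers summed to 2457, 1701 and 293.3 CPM in FceRIa-positive and 3429, 2575 and 338.9 CPM in FceRIa-negative libraries. The paired fit called 6 of the 8 tested Langerhans and dendritic genes and 10 of the 12 keratinocyte genes lower, and 8 of the 10 macrophage markers higher. It called 3 of 8 tested mast cell and basophil genes lower. Of 4 tested T, NK and B cell genes it called 2 lower and 1 higher. Over all genes it called 10.2% lower and 10.8% higher. Their part in the licensing result was not tested. Each licensing gene was highest in replicate 3, save Mcm10 in the FceRIa-positive cells. In both groups that replicate had the lowest keratinocyte sum and the highest Langerhans and dendritic sum. The latter was nearly level with that of replicate 2 in the FceRIa-positive cells. In replicate 3 its largest part was Epcam, at 47 CPM in FceRIa-positive and 529 CPM in FceRIa-negative macrophages. Carcinoma cells held Epcam as well, at 191.8 CPM in reporter-positive and 178.1 CPM in reporter-negative cells. Cd207 was highest in replicate 3 of the FceRIa-negative macrophages. In FceRIa-positive ones it was highest in replicate 2 (37.66 CPM, against 13.32 CPM in replicate 3), as were Cd209a and Dpp4. No link between these sums and the licensing genes was tested. Neutrophil markers summed to 367.5, 143.4 and 253.3 CPM in FceRIa-positive and 667.2, 126.9 and 663.3 CPM in FceRIa-negative libraries, and the paired fit called 4 of the 5 tested lower.

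Mitosis genes had a larger median difference than the licensing genes in the macrophages. All 20 were below in every FceRIa-positive library, as were 9.78% of all genes. Unpaired 0 passed, and 20 had an unadjusted p under 0.05 (7.35% of all genes were lower at that threshold). Paired 20 were called lower, as were 10.2% of all genes, with a median log2 difference of -1.01 in the list. Cdc20 was at 12.92 ± 0.503 CPM in FceRIa-positive and 30.43 ± 5.06 CPM in FceRIa-negative cells (log2 difference -1.24, adjusted p = 0.0585 unpaired, 0.000274 paired). Bub1b, a spindle checkpoint kinase, and Kif20a, a kinesin of cytokinesis, differed by -1.20 and -1.14 (paired adjusted p = 0.000192 and 0.000386). The mean log2 CPM of the 10 licensing genes minus that of the 20 mitosis genes was 0.684, 0.66 and 1.01 in FceRIa-positive and 0.32, 0.241 and 0.632 in FceRIa-negative libraries, and was higher in the FceRIa-positive library of each number. In the carcinoma cells the same quantity was lower in the reporter-positive library of each number, and a difference between the 2 sorts was not tested.

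Of the 19 origin firing genes, 10 were below in every FceRIa-positive library, 0 passed unpaired and 15 were called lower paired, with a median of -0.49. Over all genes, 9.78% were below in every FceRIa-positive library, and the paired fit called 10.2% lower and 10.8% higher. Ccna2 was at 21.17 ± 4.14 CPM in FceRIa-positive and 43.92 ± 8.66 CPM in FceRIa-negative cells (log2 difference -1.05, adjusted p = 0.062 unpaired, 0.00046 paired). Tipin and Clspn, which act at the replication fork in checkpoint signalling, differed by -0.54 and -0.88 (paired adjusted p = 0.00378 and 0.00409). Of the 6 origin recognition genes the paired fit called Orc6 lower, at 18.21 ± 1.67 CPM in FceRIa-positive and 24.45 ± 3.29 CPM in FceRIa-negative cells (log2 difference -0.42, adjusted p = 0.216 unpaired, 0.0107 paired), and the list median was 0.002.

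Of the 12 licensing regulators the paired fit called 2 lower and 1 higher, where 10.2% of all genes were called lower and 10.8% higher. The list median was -0.01. Dtl, the substrate receptor of the ubiquitin ligase that removes Cdt1 in S phase, was at 8.215 ± 2.44 CPM in FceRIa-positive and 12.82 ± 3.90 CPM in FceRIa-negative cells (paired log2 difference -0.64, adjusted p = 0.00773). Gmnn was at 22.4 ± 3.33 CPM in FceRIa-positive and 30.34 ± 5.74 CPM in FceRIa-negative cells (paired log2 difference -0.43, adjusted p = 0.0218). Cul4a, a scaffold of that ligase, was at 83.44 ± 3.95 CPM in FceRIa-positive and 70.37 ± 1.56 CPM in FceRIa-negative cells (paired log2 difference 0.24, adjusted p = 0.0477). In per-length levels Cdt1 stood at 0.775, 0.493 and 0.703 of Gmnn in FceRIa-positive and at 0.623, 0.497 and 0.575 of it in FceRIa-negative libraries, with overlapping groups.

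Among the 13 E2F and RB genes 3 were called lower and 1 higher in the paired fit, against 10.2% of all genes lower and 10.8% higher. E2f2, an activator, was at 19.42 ± 3.14 CPM in FceRIa-positive and 40.45 ± 11.6 CPM in FceRIa-negative cells (paired log2 difference -1.03, adjusted p = 0.000785, unpaired 0.0822). E2f8, an atypical repressor, was at 14.62 ± 1.13 CPM in FceRIa-positive and 24.11 ± 3.64 CPM in FceRIa-negative cells (paired log2 difference -0.71, adjusted p = 0.00177, unpaired 0.0722). Rb1, the retinoblastoma protein that restrains E2F, was at 95.8 ± 7.92 CPM in FceRIa-positive and 73.62 ± 11.0 CPM in FceRIa-negative cells (paired log2 difference 0.39, adjusted p = 0.00888, unpaired 0.241). E2f1 had a log2 difference of -0.03 (SE 0.18, adjusted p = 0.972 unpaired, 0.913 paired). Over the alternatives, the largest adjusted p of the 13 genes named from these lists was 0.235 to 0.842.

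Genes most like Mcm2 to Mcm7 over the 6 macrophage libraries were Hirip3, Pold2, Tyms, Treml4 and Cyfip2, at distances from 0.0573 to 0.0914 among 8796 genes. Tyms, thymidylate synthase, was at 17.87 CPM in FceRIa-positive and 26.63 CPM in FceRIa-negative cells, and Pold2, a subunit of polymerase delta, at 15.61 CPM in FceRIa-positive and 22.21 CPM in FceRIa-negative cells. None of the 5 is among the carcinoma 5. Cdt1 lay at 0.317, Mcm10 at 0.256, Cdc6 at 0.207 and Cdc45 at 0.0578 from the mean of the ring subunits. The subunits, each a part of that mean, lay at 0.041 (Mcm2) to 0.147 (Mcm5).

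Set against macrophages, carcinoma cells held more of all 10 mRNAs. Cell type, sort and table go together here and cannot be told apart. The fit over the 12 libraries called 10 of 10 higher in carcinoma cells, where 40.6% of the 16279 genes tested were called higher and 44.8% lower, so a call alone is common in this comparison. The log2 difference, carcinoma cells minus macrophages, was largest for Mcm5 (1.86, SE 0.161, adjusted p = 7.58e-07), Mcm7 (1.60) and Cdc45 (1.58) and smallest for Cdt1 (0.56, SE 0.14, adjusted p = 0.00288) and Cdc6 (0.65, adjusted p = 0.00923). The median over all genes was -0.09. In 5 of the 10 (Mcm2, Mcm4, Mcm5, Mcm7 and Cdc45) all 6 carcinoma libraries lay above all 6 macrophage libraries. The same order held for 5501 of the 16279 genes tested.

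**Figure D4:**
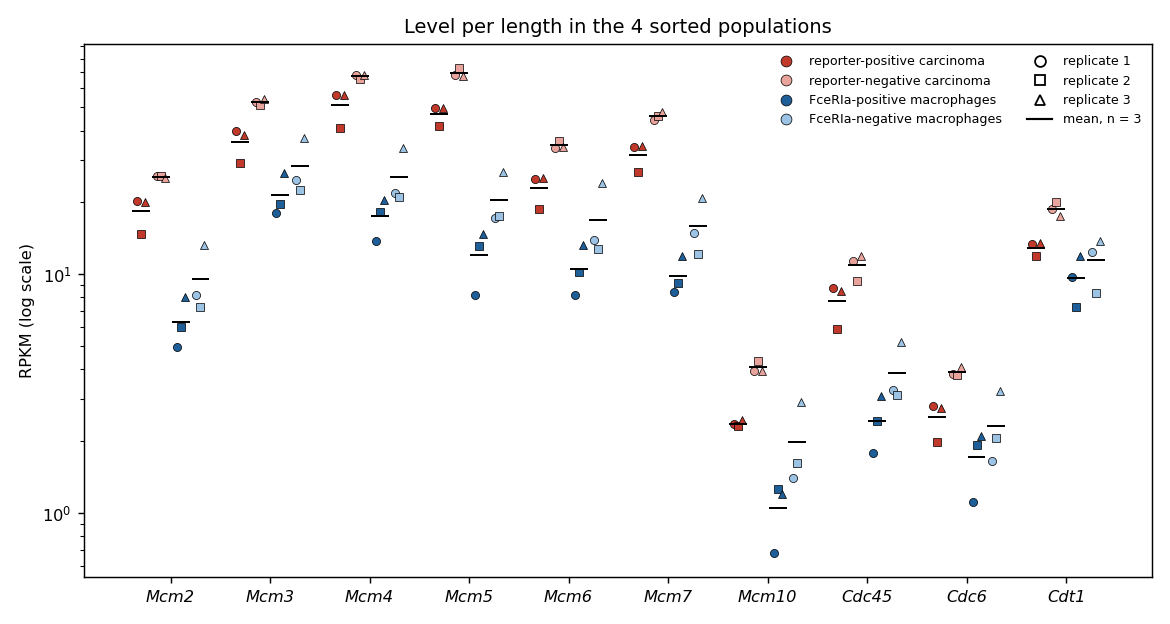
Level of each gene as CPM per kilobase of exon (RPKM) on a log axis, in reporter-positive and reporter-negative carcinoma cells (red) and FceRIa-positive and FceRIa-negative macrophages (blue). Points are libraries, with the shape giving the replicate number, and bars are means of 3. Reporter-negative carcinoma cells are highest for each gene, and Mcm10 and Cdc6 are lowest in each group.

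On the RPKM scale, which divides CPM by exon length and so sets genes side by side, each gene had the same order of group means. It was lowest in FceRIa-positive macrophages, then FceRIa-negative macrophages, then reporter-positive and last reporter-negative carcinoma cells. Reporter-positive carcinoma cells and FceRIa-negative macrophages, the neighbours in the middle, overlapped in 5 genes (Mcm3, Mcm6, Mcm10, Cdc6 and Cdt1), the 2 macrophage groups in 5 (Mcm2, Mcm3, Mcm6, Cdc6 and Cdt1), and the 2 carcinoma groups in 0. Mcm10 was at 2.374 ± 0.0686 RPKM in reporter-positive and 4.073 ± 0.237 RPKM in reporter-negative carcinoma cells, and at 1.049 ± 0.318 RPKM in FceRIa-positive and 1.982 ± 0.824 RPKM in FceRIa-negative macrophages. Mcm5 was at 47.07 ± 4.52 RPKM in reporter-positive and 69.57 ± 2.96 RPKM in reporter-negative carcinoma cells, and at 12.04 ± 3.44 RPKM in FceRIa-positive and 20.54 ± 5.54 RPKM in FceRIa-negative macrophages (SD, n = 3 each). Each ring subunit had a higher mean RPKM than Cdc6, Cdc45 and Mcm10 in all 4 groups, but Cdt1 did not keep below them. Cdt1 was at 12.95 ± 0.918 RPKM in reporter-positive and 18.78 ± 1.24 RPKM in reporter-negative carcinoma cells, below each subunit, and at 9.673 ± 2.33 RPKM in FceRIa-positive and 11.51 ± 2.85 RPKM in FceRIa-negative macrophages, where it stood at 1.04 to 1.96 times Mcm2 in the 6 libraries. That order rests on annotated exon lengths, 3140 bases for Cdt1 and 6956 for Mcm2. In CPM the mean of Cdt1 was below that of Mcm2, at 31.35 against 45.43 in FceRIa-positive and 37.01 against 68.37 in FceRIa-negative macrophages. In reporter-positive carcinoma cells Mcm4 exceeded 93.8% of protein-coding genes, Cdt1 77.8%, Cdc45 68.5%, Cdc6 48.5% and Mcm10 47.6%, and in FceRIa-positive macrophages Mcm3 exceeded 86.9%, Cdt1 74.4%, Cdc45 50.3%, Cdc6 46.3% and Mcm10 42.1%.

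The subunits that form 1 ring did not keep the same proportions in the 2 cell types. Mcm5 made up 22.1%, 24.3% and 22.1% of the summed Mcm2 to Mcm7 RPKM in reporter-positive carcinoma libraries, and 13.3% to 18.8% in the 6 macrophage libraries. Mcm3 made up 17.7%, 16.9% and 17.1% in reporter-positive carcinoma libraries, and 23.9% to 29.3% in the macrophage libraries. In reporter-negative carcinoma libraries Mcm5 held 22.6% to 24.5% and Mcm3 17.2% to 18.3%. Carcinoma and macrophage libraries thus did not overlap in either share. Mcm3 was the most abundant ring mRNA in the macrophages (27.7% ± 1.77 in FceRIa-positive, 24.3% ± 0.365 in FceRIa-negative cells) and the third in the carcinoma cells, per length. Mcm2 was at 8.88% ± 0.249 in reporter-positive carcinoma cells and 8.11% ± 0.308 in FceRIa-positive macrophages (SD, n = 3), the lowest of the 6 in every library. Within the macrophages the Mcm3 share was higher and the Mcm5 share lower in the FceRIa-positive library of each number. These shares rest on annotated exon lengths and were not tested.

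**Figure D5:**
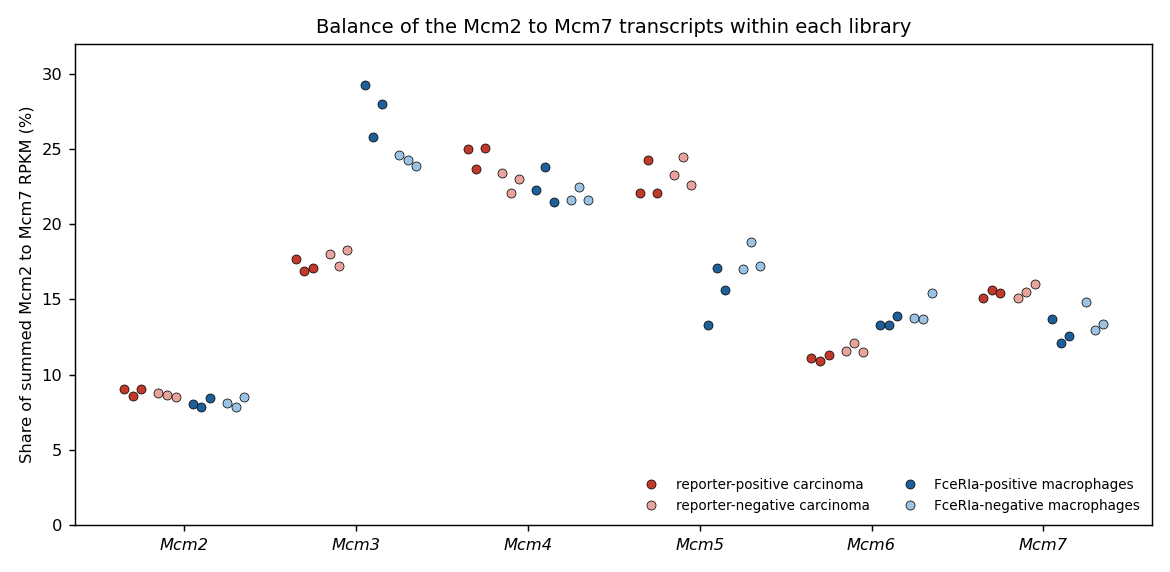
Share of each subunit in the summed Mcm2 to Mcm7 RPKM of a library, in percent. Points are the 3 libraries of a group. Mcm3 takes 23.9% to 29.3% in macrophages and 16.9% to 18.3% in carcinoma cells, and Mcm5 the larger share in carcinoma cells.

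The E2F and RB genes were split between the cell types. Of 13, 6 were called higher in carcinoma cells and 5 lower, where 40.6% of all genes were called higher and 44.8% lower. E2f1 was at 5.588 ± 0.556 RPKM in reporter-positive and 7.655 ± 0.49 RPKM in reporter-negative carcinoma cells, and at 10.27 ± 1.31 RPKM in FceRIa-positive and 10.58 ± 2.17 RPKM in FceRIa-negative macrophages (log2 difference, carcinoma minus macrophages, -0.67, adjusted p = 0.000126). E2f2 was lower in carcinoma cells as well (-1.60, adjusted p = 1.39e-06). E2f7 and E2f8 were higher in carcinoma cells by 4.65 and 2.18 (adjusted p = 1.77e-09 and 9.34e-10), and Rbl2, a relative of the retinoblastoma protein, was lower (-1.67, adjusted p = 1.07e-08). E2f4 and E2f6 were higher too, by 1.32 and 0.42 (adjusted p = 1.59e-07 and 0.00325). E2f1, E2f2, E2f4 and E2f6 are named here after their values were seen.

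For the lists that follow, 40.6% of all genes were called higher in carcinoma cells and 44.8% lower. Among 19 origin firing genes 16 were higher in carcinoma cells and 1 lower, led by Recql4 (2.45), Ccne1 (1.97) and Ccna2 (2.29) with adjusted p-values of 1.03e-08, 8.8e-08 and 9.89e-08. Donson, a replisome factor, was the 1 lower gene (-0.88, adjusted p = 5.79e-06) and is named after its value was seen. Origin recognition genes were split, with 3 higher (Orc1 by 2.30, adjusted p = 4.33e-08, Orc6 by 1.17, adjusted p = 1.21e-07, and Orc2), and 1 lower (Orc3, -0.69, adjusted p = 1.28e-05). Of 12 licensing regulators 9 were higher and 1 lower, with Ddb1 (1.77), Fzr1 (1.29) and Gmnn (1.15) first by p (adjusted p = 5.39e-09, 3.71e-08 and 1.08e-06). All 20 mitosis genes were higher, with a median of 2.04 against 1.29 for the licensing genes. Cdc20, Ccnb1 and Cdk1 differed by 3.65, 3.46 and 2.81 (adjusted p = 8.56e-10, 1.2e-09 and 1.56e-09).

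Gene IDs and places are from the files and from GENCODE M21 on GRCm38. Mcm2 (ENSMUSG00000002870) lies on chromosome 6, 88883474 to 88898780, Mcm3 (ENSMUSG00000041859) on chromosome 1, 20802968 to 20820312, and Mcm4 (ENSMUSG00000022673) on chromosome 16, 15623897 to 15637400. Mcm5 (ENSMUSG00000005410) lies on chromosome 8, 75109569 to 75128439, Mcm6 (ENSMUSG00000026355) on chromosome 1, 128331590 to 128359664, and Mcm7 (ENSMUSG00000029730) on chromosome 5, 138164583 to 138172422. Mcm10 (ENSMUSG00000026669) lies on chromosome 2, 4989714 to 5012791, Cdc45 (ENSMUSG00000000028) on chromosome 16, 18780447 to 18811987, Cdc6 (ENSMUSG00000017499) on chromosome 11, 98907801 to 98923940, and Cdt1 (ENSMUSG00000006585) on chromosome 8, 122568015 to 122573554. Values of Mcm7 and Cdc45 are uncertain where exons overlap. Mcm7 shares 64 exon bases with Cops6 and 321 with Ap4m1, and Cdc45 shares 209 with Ufd1, each on the opposite strand, and the strand setting of the counting was not given in the sources used here.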

How the data were processed

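Both deposited tables give unnormalized read counts per gene, made by the authors. The submitters' processing notes name FastQC, STAR and mm10 (GRCm38), without versions. The counting tool, strand setting and annotation release were not given in the sources used here. Of the count columns, 4 that belong to no sample here were left out.

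The tests used edgeR 4.0.16 under R 4.3.3 (TMM scaling, filterByExpr, quasi-likelihood test, Benjamini-Hochberg adjustment over all genes tested, threshold 0.05), each table on its own 6 libraries and the cell types on all 12. CPM uses TMM within a table. RPKM uses TMM over the 12 libraries and GENCODE M21 exon lengths. The code was tested on simulated data. Alternatives were DESeq2 1.42.0, other scaling factors and count filters, the block, an unadjusted threshold, a fit over 12 libraries, summed replicates and leaving out each library or pair. The members and lists were chosen with earlier results of these data known.

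Replicate numbers are from the sample titles. Deviations from group means correlated between libraries of equal number at 0.554, 0.733 and 0.56 (carcinoma cells) and at 0.729, 0.831 and 0.762 (macrophages). All exceeded 0.1, so the numbers were taken as pairs and paired values stand beside unpaired ones. Carcinoma replicates 1 and 3 also correlated across numbers (0.561 and 0.571), so there the pairing parts replicate 2 from the others only. Residual degrees of freedom were 4 unpaired and 2 paired.

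All 10 members were named. From each related list, the text names up to 3 called genes with the smallest p, or the 1 smallest where none was called. Using this rule on the paired fit as well was decided after seeing the data. The 5 genes of most alike pattern were taken among those with a mean CPM of at least 10.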

Additional observations from a re-analysis of the deposited data

How the results depend on the processing

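In the carcinoma cells the unpaired fit called 1 of the 10 licensing genes lower. DESeq2 1.42.0 called 8, no count filter gave 3, a filter of 1 CPM in 3 libraries gave 2, an unadjusted p under 0.01 gave 7, and a fit over all 12 libraries gave 0. The replicate block called 10, also in DESeq2 and without any 1 pair. Leaving out 1 library without the block gave 0 to 9. With replicates 1 and 3 summed the count was 0 unpaired and 9 paired. In the macrophages the unpaired fit called 0, the block 8, also in DESeq2, and the block without 1 pair 2 to 9. Other alternatives called 0 there. All 10 were called higher in carcinoma cells than in macrophages under each of 16 alternatives. Across all 3 comparisons and their alternatives, 0 of 540 log2 differences of the 10 genes changed sign. The unadjusted threshold keeps the main estimates and could not change a sign. The other alternatives refit the same libraries, so they are not independent checks. The cause of these changes in count was not tested.

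Counts over all genes moved as well. In the macrophages they also moved under alternatives where the count of licensing genes stayed at 0. The carcinoma count of 110 was 1158 with DESeq2, 209 without a filter, 8 in the fit over 12 libraries, 1057 at an unadjusted p under 0.01 and 2449 with the block (1687 in DESeq2, 1143 to 5729 without 1 pair, 935 with replicates 1 and 3 summed, where the unpaired count was 0). It was 621 without positive replicate 2, 10 without negative replicate 2, 1 without positive replicate 1 and 0 without any 1 of the other 3 libraries. The macrophage count of 0 was 1268 with DESeq2, 623 without a filter, 845 in the fit over 12 libraries, 1032 at an unadjusted p under 0.01 and 3142 with the block (2810 in DESeq2, 1317 to 3349 without 1 pair). Without 1 library it was 0 to 2.

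With 3 libraries a group, an exact test of 1 gene cannot give a p under 0.1, so calls rest on a spread shared across genes. Whether carcinoma replicates 1 and 3, which lie close together, are independent was not tested.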
